A study of Mus musculus with 6 samples.

Results

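Desmosomes are the spot-like junctions that hold the cells of layered epithelia together, and the 10 genes described here encode their main building blocks in surface epithelia. They are 5 desmosomal cadherins (Dsg1a, Dsg2, Dsg3, Dsc2 and Dsc3), 4 plaque proteins (Dsp, Jup, Pkp1 and Pkp3) and the membrane protein gene Perp. The genes were taken by symbol from a table of read counts for 25006 mouse genes, and all 10 were found and passed the filter on low counts. RNA was taken from sheets of corneal epithelium, the multilayered cell sheet on the front of the eye, of mice labelled EphA2 null (3 libraries) and of wild type mice (3 libraries). EphA2 is a receptor tyrosine kinase for ephrin-A ligands on neighbouring cells. The sources used here give no kind of null allele, strain, age or sex, and do not say whether each library came from its own animal, so p-values measure the spread between these libraries, which may be technical. The sample titles carry a number and a letter (N, R or B) whose meanings are not stated. The number is the same for wild type 1 and 2, and the same for the libraries labelled EphA2 null 2 and 3. The letter differs between libraries that share a number, and N and R recur across numbers. The numbers fall into a higher range, held by EphA2 null 2 and 3 and wild type 3, and a lower range. The lower range is held by EphA2 null 1 and wild type 1 and 2, so each range holds libraries of both labels. This split was taken up because earlier results of these data showed the libraries separating by it. Its p-values and shares of genes called therefore describe these libraries and are not an independent test of the split.

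In a desmosome, desmogleins and desmocollins reach across the gap between cells and bind those of the neighbour. Inside the cell their tails bind plakoglobin (Jup) and plakophilins (Pkp genes), and these bind desmoplakin (Dsp), which anchors the keratin filaments. In layered epithelia such as epidermis, Dsg3 and Dsc3 are known mainly from the lower layers and Dsg1 from the upper ones. Perp, a tetraspan membrane protein first known as a p53 target and in skin a p63 target, is needed for desmosome assembly in mouse skin.

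Total counts ran from 15308013 to 27586942 per library. Corneal epithelial markers were abundant, with Krt12, Krt5, Krt14, Pax6, Aldh3a1, Tkt and Clu summing to between 57734 and 81740 CPM (reads relative to each library's TMM-adjusted total) in every library. The 10 desmosome genes together took 1.72 ± 0.262% of normalised counts under the label EphA2 null, against 1.64 ± 0.159% for wild type (SD, n = 3 each). By title number their share was 1.85 ± 0.0644% at the higher and 1.51 ± 0.0748% at the lower numbers (SD, n = 3 each). Epha2, the gene named by the label, had 285, 653 and 578 CPM across libraries labelled EphA2 null 1, 2 and 3, against 298, 253 and 563 CPM in wild type 1, 2 and 3. The level therefore does not show the labelled genotype, and every genotype direction below rests on the label. A null allele that removes 1 exon could leave the count per gene as it was. Epha2 did differ by title number, with 598 ± 48.1 CPM at the higher and 279 ± 23.1 CPM at the lower numbers (SD, n = 3 each; adjusted p = 0.00174, edgeR's quasi-likelihood test).

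Perp was the most abundant of the 10 genes, and Dsg2 the least. Levels of different genes are given per length, as CPM per kilobase of annotated exon, averaged over the 6 libraries with the SD. Perp had 1938 ± 232 CPM per kilobase. Dsp had 454 ± 184, Dsc3 401 ± 60.3 and Dsc2 372 ± 38.0 CPM per kilobase, and these 3 were not ordered beyond the spread, since each neighbouring pair changed order between libraries. Dsg1a had 204 ± 26.8, Pkp1 197 ± 74.6, Jup 166 ± 67.0, Pkp3 127 ± 29.6 and Dsg3 107 ± 11.9 CPM per kilobase. In this middle group Pkp1 was above Jup in 6 of 6 libraries, while the pairs Dsg1a and Pkp1, Jup and Pkp3, and Pkp3 and Dsg3 changed order. Dsg2, the desmoglein best known from simple epithelia and heart, had 11.3 ± 1.26 CPM per kilobase and lay below Dsg3 in 6 of 6 libraries. The order depends on the length used: per kilobase of the longest transcript, Jup had 334 ± 135 CPM per kilobase in place of 166, which moved it above Pkp1 and Dsg1a, and Dsc2 moved above Dsc3.

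Dsg1a belongs to a tight gene cluster with related genes that share part of its sequence, and its level is uncertain to that extent. Of the 5637 different runs of 50 bases in its annotated transcript, 31.6% also occur in Dsg1b transcripts and 18.8% in Dsg1c transcripts, and none occur in Dsg2, Dsg3 or Dsg4. Dsg1b had between 64.0 and 76.2 CPM per library and Dsg1c at most 0.55 CPM, against 920 to 1335 CPM for Dsg1a. For the other 9 genes, the only gene overlapping their annotated span was Gm16090, on the opposite strand of Dsg2, with 29 counts in all libraries against 11371 for Dsg2.

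The comparison of genotypes asks whether the labelled loss of EphA2 changes the RNA of these junction genes. Of the 10 genes 0 were called between the libraries labelled EphA2 null and wild type at an adjusted p under 0.05 in edgeR's quasi-likelihood test, and 0 had an unadjusted p under 0.05. DESeq2, which called 0.0272% of the genes it fitted, and limma voom also called 0 of them. Over all 12847 tested genes 0.00778% were called, that is 1 gene. The log2 fold changes, libraries labelled EphA2 null over wild type, lay between -0.17 for Dsg1a and 0.26 for Dsp, with a median of 0.12 over the 10 genes and 0.01 over all tested genes. The genotypes overlapped for each of the 10 genes, while 3.73% of all tested genes had no overlap.

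For the plaque genes the spread within each genotype was wide. Dsp had 2234, 6039 and 6077 CPM across libraries labelled EphA2 null 1, 2 and 3, against 3379, 2791 and 5802 CPM in wild type 1, 2 and 3. High values stood in both genotypes, in the ones labelled EphA2 null 2 and 3 and in wild type 3, all with higher title numbers. The log2 fold change between genotypes was 0.26 ± 0.42 (SE, n = 3 per group; adjusted p = 0.9996, edgeR). Jup had 0.25 ± 0.42, Pkp1 0.17 ± 0.40 and Pkp3 0.20 ± 0.24 (SE; adjusted p = 0.9996 for each, edgeR). Once the fit held a term for title number, these log2 fold changes were -0.20 ± 0.16 for Dsp, -0.24 ± 0.17 for Jup, -0.26 ± 0.15 for Pkp1 and -0.03 ± 0.12 for Pkp3 (SE), so the sign turned for each of the 4, and again 0 of the 10 genes were called (0.00778% of all tested genes).

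**Figure D1:**
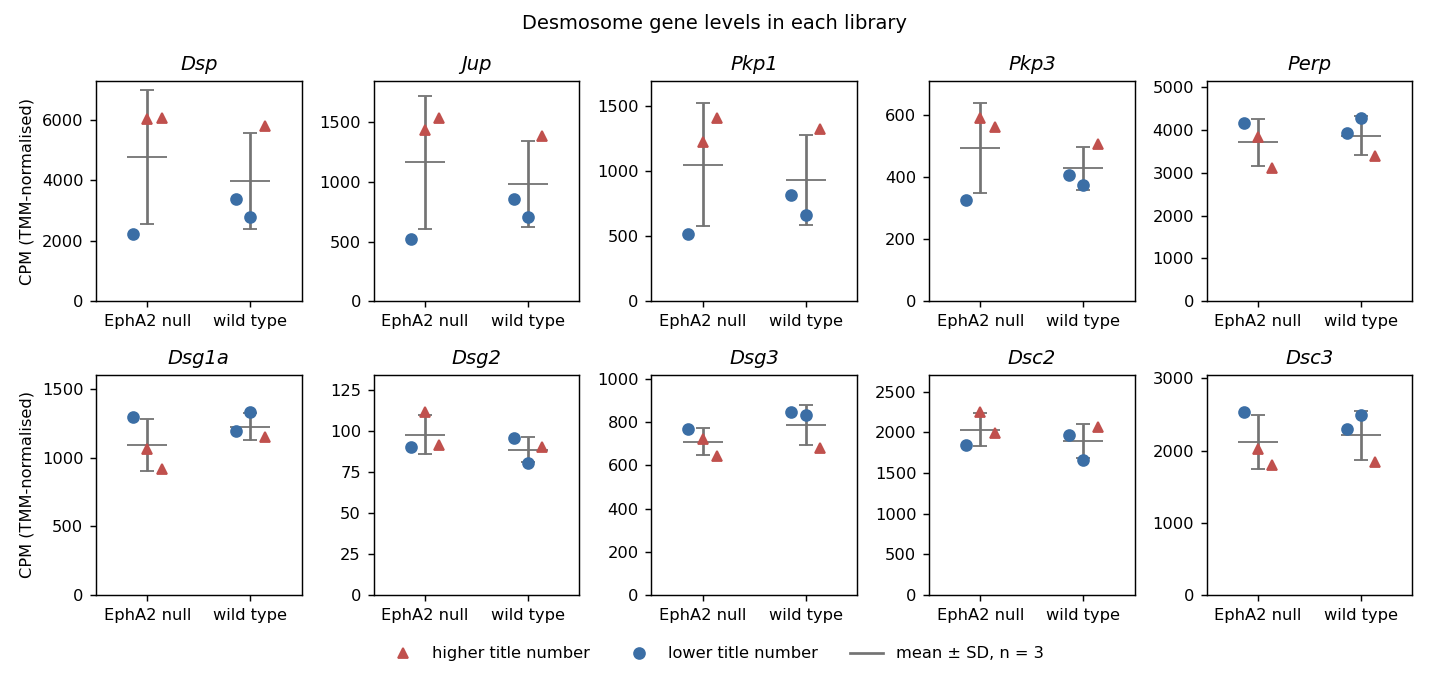
Level of each of the 10 genes in each library, in CPM (TMM-normalised, each panel from 0), with libraries labelled EphA2 null on the left and wild type on the right; triangles are higher and circles lower title numbers, and grey bars are the mean ± SD of 3 libraries. For Dsp the triangles sit between 5802 and 6077 CPM and the circles between 2234 and 3379 CPM, whichever genotype they carry.

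For the cadherins and Perp the SE of the genotype log2 fold change was between 0.15 and 0.19, and for the plaque genes between 0.24 and 0.42. Dsg1a had a log2 fold change of -0.17 ± 0.16 and Dsg3 of -0.15 ± 0.15, while Dsg2 had 0.14 ± 0.15 and Dsc2 0.10 ± 0.15 (SE, n = 3 per group; adjusted p = 0.9996 for each, edgeR). Dsc3 and Perp, each with -0.06, lay nearest 0. In that second fit Dsc3 had 0.07 ± 0.11 and Perp 0.03 ± 0.13. Within the higher title numbers the log2 ratio of mean CPM, labelled EphA2 null over wild type, was 0.06 for Dsp and 0.10 for Jup. There the libraries labelled EphA2 null 2 and 3 are compared with wild type 3 alone. Within the lower ones it was -0.47 for Dsp and -0.57 for Jup, where the library labelled EphA2 null 1 is compared with wild type 1 and 2. Whether the genotype difference itself differs between the ranges was tested with an interaction term in edgeR, which called 0 of the 10 genes and 0.0% of all tested genes. DESeq2 also called 0 of the 10. At an unadjusted p under 0.05 stood 1 of the 10 in edgeR, Jup, beside 615 of all 13601 genes, and 4 of the 10 in DESeq2, beside 340 of all 18389 genes. The 18389 genes are all those with any count, so they include genes too low for edgeR's filter. In the interaction fit EphA2 null 1 and wild type 3 each stand alone for their label and range. It has 2 residual degrees of freedom, so the absence of calls shows little. The interaction of Jup was 0.68 ± 0.24 on the log2 scale (SE; adjusted p = 0.99996, edgeR).

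By title number, the plaque genes Dsp, Jup, Pkp1 and Pkp3 were higher in the 3 libraries with higher numbers, and Dsc3 was lower, so that 5 of the 10 genes were called in edgeR's quasi-likelihood test with genotype as a term. Over all 12847 tested genes 44.7% were called, 24.6% higher and 20.1% lower, so the count of 5 is near the background. The split was taken from these same data, so calls by title number describe these libraries and do not test the split. A log2 fold change of at least 1, a size limit chosen after the values were seen, was reached by 3 of the 10, Dsp, Jup and Pkp1, against 3.48% of tested genes called at that size. None of the 3 reached it when EphA2 null 1 was left out (0.91 for Dsp, 0.83 for Jup and 0.84 for Pkp1), and with GC offsets Dsp (1.07) reached it while Pkp1 (0.88) and Jup (0.74) did not. The ranges of title number did not overlap for 9 of the 10 genes, the exception being Dsg2, against 59.0% of all tested genes. With total counts in place of TMM factors the median log2 fold change of all tested genes was -0.13 in place of -0.01, and calls split into 2449 higher and 3667 lower in place of 3154 and 2586. Under that scaling 8 of the 10 genes were called, against 47.6% of all tested genes, Dsg1a, Dsg3 and Perp as lower besides the 5 above. When EphA2 null 1 was left out, 3 of the 10 genes (Dsp, Jup and Pkp1) and 1103 genes in all were called.

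Desmoplakin, the plakin that ties the junction to keratin filaments, had 5973 ± 149 CPM at the higher and 2801 ± 572 CPM at the lower title numbers (SD, n = 3 each). The log2 fold change of Dsp was 1.18 ± 0.16 (SE), that is 2.26-fold (adjusted p = 0.00203, edgeR). It was 1.44 among libraries labelled EphA2 null and 0.91 among wild type ones. The first value rests on EphA2 null 1 alone at the lower numbers, the second on wild type 3 alone at the higher. The promoters of Dsp and Jup are shown because they are those of the called plaque genes that matched an entry in the RefSeq promoter table used here. Pkp1 and Pkp3 were also called, so the pair was set by which entries matched. Both sequences run 5′ to 3′ on the strand of the gene, from 250 bases before to 50 bases after the RefSeq start (GRCm38.p6), Dsp at chr13:38151044-38151343 on the plus strand and Jup at chr11:100397741-100398040 on the minus strand. Capitals mark the GC box letters CCGCCC on either strand.
Dsp: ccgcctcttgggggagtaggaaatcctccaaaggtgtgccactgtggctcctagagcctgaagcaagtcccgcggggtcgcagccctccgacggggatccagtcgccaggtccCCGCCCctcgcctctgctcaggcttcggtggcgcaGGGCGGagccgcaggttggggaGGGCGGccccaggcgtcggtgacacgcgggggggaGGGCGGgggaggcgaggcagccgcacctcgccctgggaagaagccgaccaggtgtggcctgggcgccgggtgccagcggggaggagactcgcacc
Jup: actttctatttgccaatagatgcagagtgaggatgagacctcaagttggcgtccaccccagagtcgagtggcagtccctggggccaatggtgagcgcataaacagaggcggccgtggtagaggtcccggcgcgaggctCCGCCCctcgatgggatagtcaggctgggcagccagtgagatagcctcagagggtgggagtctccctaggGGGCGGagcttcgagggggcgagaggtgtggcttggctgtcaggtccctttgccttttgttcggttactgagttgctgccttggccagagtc
The Dsp window holds 4 matches to the GC box and the Jup window 2, and no matches overlap. Of 32851 RefSeq promoter windows of this length, 35.7% hold at least 1 match. The letters TATAAA (13.6% of windows), AACCNGTT, a core bound by grainyhead-like factors (2.09%), and TGANTCA for AP-1 (7.81%) do not occur in either window. Neither does CACGTG, a form of the E-box (7.15%). All were searched on both strands, and other forms of the E-box were not searched. The GC content of the windows is 73.0% for Dsp and 60.7% for Jup.

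Plakoglobin is the armadillo protein that desmosomes share with adherens junctions. Jup had 522, 1431 and 1536 CPM across libraries labelled EphA2 null 1, 2 and 3, against 852, 702 and 1384 CPM in wild type 1, 2 and 3. The 3 libraries with higher title numbers were above all others, with 1450 ± 77.8 CPM against 692 ± 166 CPM at the lower numbers (SD, n = 3 each). Its log2 fold change by title number was 1.17 ± 0.17 (SE; adjusted p = 0.00230, edgeR), with 1.51 among libraries labelled EphA2 null and 0.83 among wild type ones. Those last values rest on EphA2 null 1 alone at the lower and wild type 3 alone at the higher numbers.

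Plakophilins 1 and 3 cluster the cadherin and desmoplakin complexes at the membrane, and loss of plakophilin 1 causes skin fragility in humans. Pkp1 had 515, 1223 and 1408 CPM across libraries labelled EphA2 null 1, 2 and 3, against 815, 660 and 1319 CPM in wild type 1, 2 and 3. Its means were 1317 ± 92.6 CPM at the higher and 663 ± 150 CPM at the lower title numbers, and the log2 fold change was 1.10 ± 0.15 (SE; adjusted p = 0.00219, edgeR). Pkp3 had 327, 591 and 561 CPM across libraries labelled EphA2 null 1, 2 and 3, against 405, 374 and 506 CPM in wild type 1, 2 and 3. The ranges again did not overlap, and the change was smaller, 0.60 ± 0.12 (SE; adjusted p = 0.00583, edgeR). Without the library labelled EphA2 null 1, the lowest of the 6 for each of the 4 plaque genes, Dsp (log2 fold change 0.91), Jup (0.83) and Pkp1 (0.84) were still called and Pkp3 (0.37, adjusted p = 0.120) was not.

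Among the 5 cadherins, 1 was called by title number, as lower. Dsc3, a desmocollin of the lower epithelial layers, had 2541, 2018 and 1805 CPM across libraries labelled EphA2 null 1, 2 and 3, against 2305, 2498 and 1837 CPM in wild type 1, 2 and 3. Every library with a higher title number was below every other, and the log2 fold change was -0.40 ± 0.11 (SE; adjusted p = 0.0177, edgeR). It was -0.41 among libraries labelled EphA2 null and -0.39 among wild type ones, with EphA2 null 1 alone at the lower and wild type 3 alone at the higher numbers. Leaving out EphA2 null 1 (-0.39, adjusted p = 0.164), wild type 2 (-0.40, adjusted p = 0.0633) or wild type 3 (-0.43, adjusted p = 0.0855) ended the call.

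Dsc2, the widely expressed desmocollin, had 1848, 2256 and 1995 CPM across libraries labelled EphA2 null 1, 2 and 3, against 1961, 1662 and 2064 CPM in wild type 1, 2 and 3. It lay on the opposite side of 0 from Dsc3, at 0.19 ± 0.12 by title number (SE; adjusted p = 0.199, edgeR). The 2 more abundant desmogleins, both known as targets of pemphigus autoantibodies, had log2 fold changes by title number of -0.26 ± 0.11 for Dsg1a (adjusted p = 0.0915) and -0.24 ± 0.10 for Dsg3 (adjusted p = 0.0792, edgeR). Dsg1a had 1043 ± 115 CPM at the higher and 1273 ± 72.6 CPM at the lower title numbers, and Dsg3 had 679 ± 39.7 CPM at the higher and 814 ± 43.5 CPM at the lower ones (SD, n = 3 each). Dsg2 had 97.8 ± 12.1 CPM at the higher and 88.5 ± 7.79 CPM at the lower numbers, with overlap (log2 fold change 0.11 ± 0.12; adjusted p = 0.481, edgeR). Perp had 4163, 3840 and 3108 CPM across libraries labelled EphA2 null 1, 2 and 3, against 3924, 4280 and 3388 CPM in wild type 1, 2 and 3. Its log2 fold change by title number was -0.27 ± 0.13 (SE; adjusted p = 0.113, edgeR). DESeq2 called 8 of the 10 genes, with Dsg1a (adjusted p = 0.0444), Dsg3 (0.0387) and Perp (0.0399) as lower in addition to Dsc3. It called 5455 genes in all, beside 5740 of 12847 in edgeR. That is 29.7% of the 18389 genes it fitted, which were all those with any count. These include genes too low for edgeR's filter, so 29.7% is not a like background for the 10 genes.

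**Figure D2:**
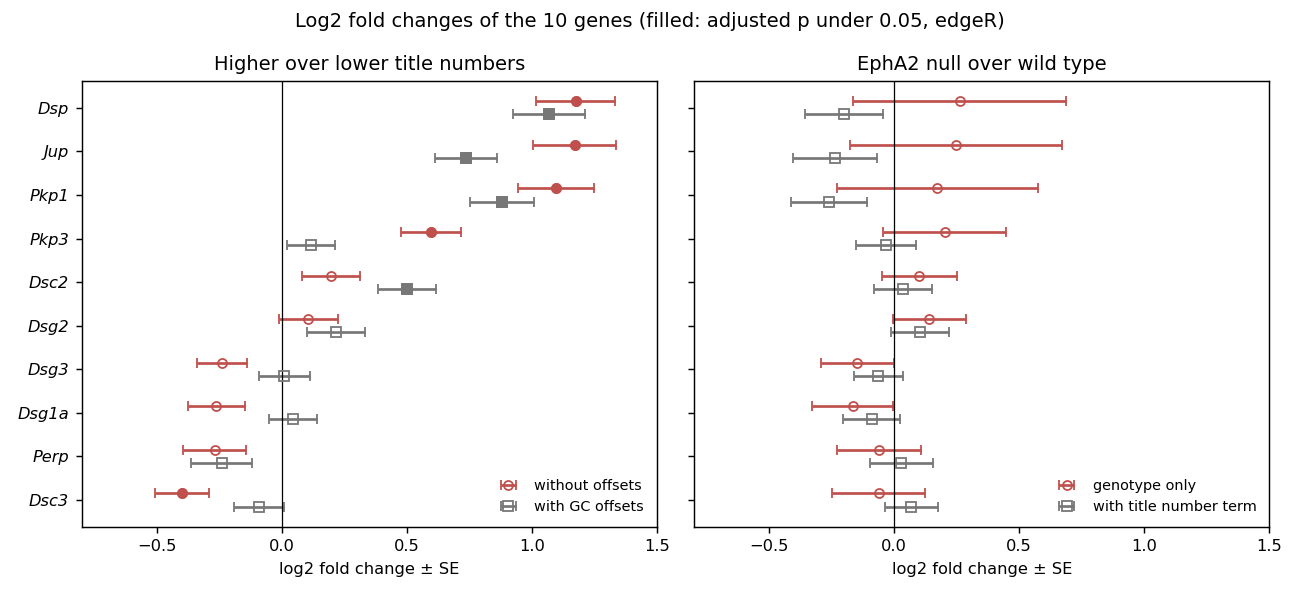
Log2 fold changes ± SE of the 10 genes by title number (left, with and without GC offsets) and by genotype (right, with and without the title number term), 3 libraries a group; filled symbols have an adjusted p under 0.05 in edgeR. Dsp, Jup and Pkp1 lie near 1.1 to 1.2 on the left without offsets, and every symbol on the right is open.

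The base composition of the genes moved with the difference between title numbers. Over all tested genes, the median log2 fold change by title number was -0.38 in the lowest and 0.48 in the highest of 10 equal bins by GC content of the longest transcript. The 4 cadherins Dsg1a, Dsg3, Dsc2 and Dsc3 have a GC content between 41.9% and 43.6%, in a bin whose median was -0.28. Jup and Pkp3, with 58.8% and 60.3%, are in the highest bin, Pkp1, with 53.8%, in a bin with a median of 0.27, and Dsp, with 51.8%, in one with a median of 0.15. Dsg2 and Perp lie between, with 47.5% and 48.0%. The part of base composition in the differences was not tested beyond the offsets given next.

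When each library was offset by the median deviation of genes of like GC content, a step added after the values were seen, 4 of the 10 genes were called, against 35.0% of all tested genes. Dsp kept 1.07 ± 0.14 (adjusted p = 0.00195), Pkp1 0.88 ± 0.13 (adjusted p = 0.00222) and Jup 0.74 ± 0.12 (SE; adjusted p = 0.00336, edgeR). Pkp3 fell out with 0.12 ± 0.09 (adjusted p = 0.371), and so did Dsc3 with -0.09 ± 0.10 (SE; adjusted p = 0.501, edgeR). Dsc2 was called as higher with 0.50 ± 0.12 (adjusted p = 0.0122). Dsg1a had 0.05 ± 0.10 and Dsg3 0.01 ± 0.10, so their sign turned, and Perp had -0.24 ± 0.12. Offsets by exon length instead left the 5 calls in place and added Dsg3 as lower (-0.36 ± 0.10, adjusted p = 0.0203), with 41.5% of all tested genes called.

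**Figure D3:**
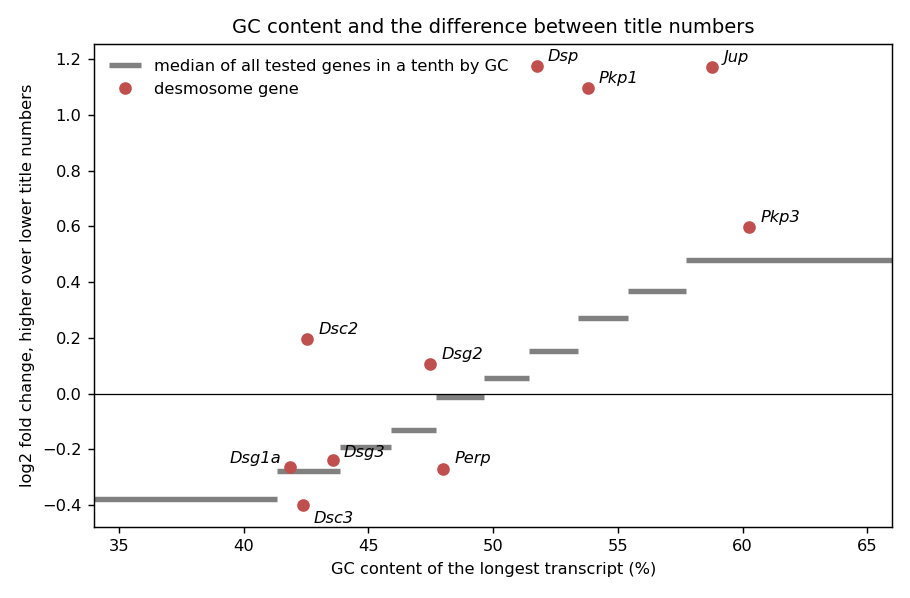
Log2 fold change by title number (vertical axis) against the GC content of the longest transcript in percent (horizontal axis) for the 10 genes (points), with the median of all tested genes in each of 10 bins by GC content (grey lines). The grey medians climb from -0.38 to 0.48, and Dsp, Pkp1 and Jup lie furthest above them.

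Ratios of counts within a library do not depend on how libraries are scaled. They are not corrected for the length or GC content of the genes. With 3 libraries against 3, the exact permutation test cannot give a two-sided p below 0.10, so none of these ratios could pass 0.05. Dsc2 counts per Dsc3 count were 1.12 ± 0.00926 at the higher and 0.748 ± 0.0945 at the lower title numbers (SD, n = 3 each; exact permutation p = 0.10, 0.125 adjusted over the 5 ratios). Pkp1 per Pkp3 was 2.40 ± 0.285 at the higher and 1.78 ± 0.219 at the lower numbers, and Dsg2 per Dsg3 was 0.144 ± 0.0111 at the higher and 0.109 ± 0.0109 at the lower ones. Jup per Ctnnb1, the gene of its close relative β-catenin, was 2.28 ± 0.178 at the higher and 1.02 ± 0.233 at the lower numbers (exact permutation p = 0.10 for each of the 3). For these 4 ratios the 3 higher title numbers lay above all lower ones. Dsg1a per Dsg3 overlapped, with 1.53 ± 0.138 at the higher and 1.57 ± 0.145 at the lower numbers (exact permutation p = 1.0). Between genotypes the same 5 ratios had exact permutation p of 0.20 or more, with Jup per Ctnnb1 at 1.81 ± 0.908 under the label EphA2 null, against 1.48 ± 0.612 for wild type.

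The ratio of plaque to cadherin read counts, from sums formed after the values were seen, followed the same split. Counts of Dsp, Jup, Pkp1 and Pkp3 per count of the 5 cadherins were 0.551, 1.51 and 1.76 across libraries labelled EphA2 null 1, 2 and 3, against 0.851, 0.707 and 1.55 in wild type 1, 2 and 3. Plaque counts outnumbered cadherin counts in the 3 libraries with higher title numbers and were fewer in the other 3, whichever the genotype. These reads are not corrected for length, and Dsp, the longest gene with 9659 exon bases, gave most plaque counts. A ratio above 1 is therefore not an excess of RNA molecules. GC content was 51.8% to 60.3% for the plaque genes and 41.9% to 47.5% for the cadherins. Its part in this ratio was not tested.

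**Figure D4:**
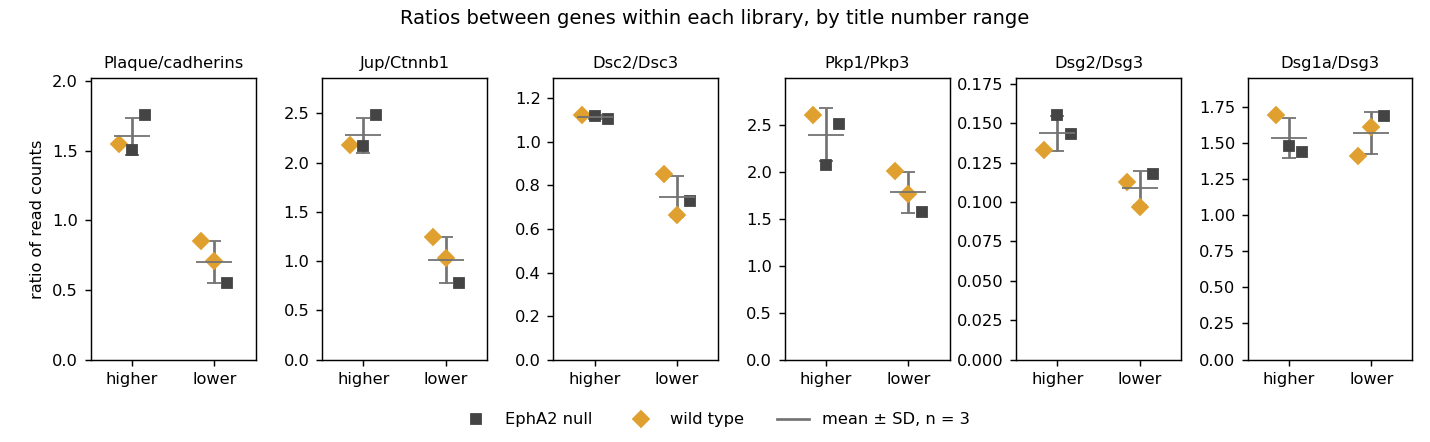
Ratios of read counts between desmosome genes in each library (vertical axes from 0), with higher title numbers left and lower ones right; squares are libraries labelled EphA2 null, diamonds wild type, grey bars the mean ± SD of 3 libraries. Plaque per cadherin counts average 1.60 at the higher and 0.703 at the lower title numbers, while Dsg1a per Dsg3 overlaps.

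The counts of calls in the 5 lists of related genes stand beside 44.7% of all tested genes called by title number, 24.6% higher and 20.1% lower. Of 9 tested genes for other desmosome proteins and plakins, 4 were called by title number, a share near that background, all higher, with a median log2 fold change of -0.03 over the list. Kazn, whose product kazrin binds periplakin, had 0.79 ± 0.10 (SE; adjusted p = 0.00182, edgeR). Ppl and Evpl, which encode the plakins periplakin and envoplakin of the cornified envelope, had 0.83 ± 0.12 and 0.93 ± 0.16, and Pkp4, an armadillo gene related to the plakophilins, 0.61 ± 0.11 (SE; adjusted p of 0.00456 or less, edgeR). Ppl had 2860 ± 143 CPM at the higher and 1657 ± 198 CPM at the lower title numbers, and Evpl had 1776 ± 171 CPM at the higher and 995 ± 230 CPM at the lower ones (SD, n = 3 each). With GC offsets each of the 4 was still called, Evpl with 0.45 (adjusted p = 0.0195) and Ppl with 0.54 (adjusted p = 0.00484). Dsc1, the desmocollin of upper epidermis, had at most 3.67 CPM per library, Dsg4, a hair desmoglein, at most 0.816 CPM, and Pkp2, the plakophilin of heart and simple epithelia, at most 11.6 CPM.

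Transcription factors known from layered epithelia were called in 5 of 8 cases (44.7% of all tested genes), all higher at the higher title numbers (24.6% of all tested genes), with a list median of 0.62 against -0.01 for all tested genes. Grhl3, a grainyhead-like factor of epidermal barrier formation, had 286 ± 4.63 CPM at the higher and 126 ± 25.3 CPM at the lower numbers (log2 fold change 1.18 ± 0.15). Klf4, a factor gene of epithelial differentiation, had 1686 ± 288 CPM at the higher and 618 ± 125 CPM at the lower numbers (1.46 ± 0.19; SE, adjusted p of 0.00197 or less for both, edgeR). Grhl1, known in mice as a regulator of Dsg1 genes, had 0.68 ± 0.12, and Grhl2 0.57 ± 0.10. Among genes that handle desmosomes (calcium pumps, sheddases, trafficking and kinase genes), 5 of 10 were called higher and 1 lower (24.6% and 20.1% of all tested genes), with a median of 0.40. Atp2a2, the calcium pump gene mutated in Darier disease, had 305 ± 19.8 CPM at the higher and 153 ± 22.4 CPM at the lower title numbers, which is 1.01 ± 0.13 on the log2 scale (SE; adjusted p = 0.00183, edgeR). The kinase genes Gsk3b and Prkca had 0.59 ± 0.09 and 0.61 ± 0.10, and Zdhhc5, a palmitoyltransferase gene, 0.74 ± 0.12.

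The adherens junction core was called in 3 of 5 cases (44.7% of all tested genes), all higher, with a median of 0.48. Cdh1, which encodes E-cadherin, had 618 ± 45.8 CPM at the higher and 347 ± 54.4 CPM at the lower title numbers (log2 fold change 0.85 ± 0.14), Ctnna1, the α-catenin gene, had 0.48 ± 0.11, and Cdh3, the P-cadherin gene, 0.48 ± 0.16 (SE; adjusted p of 0.0337 or less, edgeR). Keratins, the filaments that desmosomes anchor, gave 1 call higher and 1 lower among 10, with a median of -0.22. The stress keratin genes Krt17 and Krt16 were those called, at -0.54 ± 0.12 (adjusted p = 0.00747) and 1.07 ± 0.36 (SE; adjusted p = 0.0419, edgeR). With GC offsets Krt16 (adjusted p = 0.139) and Cdh3 (adjusted p = 0.0841) were no longer called. Over the 5 lists 18 genes were called higher and 2 lower of 42 tested, in all a share near the 44.7% of all tested genes. When EphA2 null 1 was left out, 6 in all were called: Kazn, Ppl, Pkp4, Grhl3, Klf4 and Atp2a2. Evpl, Grhl1, Grhl2, Gsk3b, Prkca, Zdhhc5, Krt16 and Krt17 were then not called. Nor was any gene of the adherens junction core, with log2 fold changes of 0.62 for Cdh1, 0.42 for Ctnna1 and 0.17 for Cdh3. By genotype 0 of the 42 tested genes of these 5 lists were called in edgeR or DESeq2, with 1, Krt16, at an unadjusted p under 0.05 (log2 fold change 1.69 ± 0.51 SE, adjusted p = 0.9996, edgeR).

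**Figure D5:**
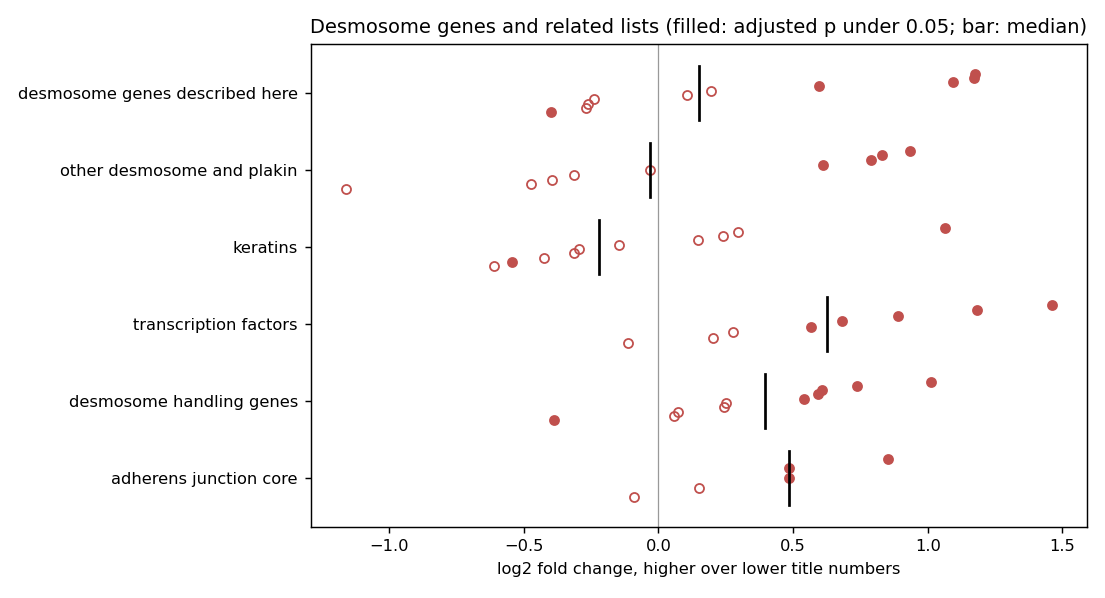
Log2 fold change by title number of the 10 desmosome genes and of 5 related lists (each point a gene, filled where the adjusted p is under 0.05 in edgeR, black bars the list medians). Of the 10 genes, 5 have filled points: the 4 plaque genes between 0.60 and 1.18, and Dsc3 at -0.40. The open points, the other 4 cadherins and Perp, lie between -0.27 and 0.19.

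Markers of other cells also differed by title number, and their part in the desmosome values was not tested. In bulk RNA, fewer cells of a type and less RNA per cell cannot be told apart. Of 10 tested leukocyte markers (background as above, 44.7% of all tested genes) 9 were called lower and 1, Cd52, higher, and the 12 listed summed to between 13.3 and 18.7 CPM at the higher and between 30.1 and 47.2 CPM at the lower title numbers. The 5 conjunctival markers summed to between 8349 and 11841 CPM at the higher and between 12525 and 13783 CPM at the lower numbers. Most of that sum was Gsta4, with means of 5589 and 7740 CPM, and Krt13, with 2704 and 3491 CPM. Called were 2 of the 5, both lower (20.1% of all tested genes): Gsta4 (adjusted p = 0.0147, edgeR) and Muc5ac. The goblet cell mucin gene Muc5ac had 1.52 ± 0.781 CPM at the higher and 34.2 ± 27.0 CPM at the lower numbers (adjusted p = 0.00232, edgeR). Krt4, Krt13 and Krt19 were not called. Basal cell markers summed to between 35124 and 37797 CPM at the higher and between 26999 and 31198 CPM at the lower numbers. Most of that sum was Krt5, with a mean of 29632 CPM at the higher and 24317 CPM at the lower numbers. Called were 3 of 6, all higher (24.6% of all tested genes): Itgb4, Itga6 and Col17a1, genes of the anchoring hemidesmosome. Not called were Krt5 (log2 fold change 0.30), Trp63 (0.20) and Krt14, which lay the other way (-0.29). Corneal epithelial markers summed to between 74610 and 81740 CPM at the higher and between 57734 and 65415 CPM at the lower numbers. Of these 7, Aldh3a1 and Tkt were called higher (24.6% of all tested genes), while Krt14 and Clu (-0.13) lay below 0 and were not called. Stromal keratocyte markers were near the floor, with sums between 0.411 and 1.69 CPM at the higher and between 0.524 and 1.33 CPM at the lower numbers and with Kera and Lum at 0 in every library. Of the 3 endothelial markers Cdh2 was at 0 in every library and Slc4a11 was called higher (27.5 ± 9.27 CPM at the higher and 11.7 ± 1.69 CPM at the lower numbers). The 4 epidermal markers summed to between 10.6 and 12.2 CPM at the higher and between 10.1 and 12.4 CPM at the lower numbers.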

How the data were processed

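The authors deposited 1 table of raw read counts, whole numbers per Ensembl gene and library, which were used as deposited. The sources used here do not give the aligner, counting program, strand setting, genome build or annotation. Columns were matched to samples by title, and genotypes come from the labels. Symbols, positions, exon lengths and GC content come from GENCODE M21 (GRCm38), which had 24942 of the 25006 identifiers. Promoter sequences come from RefSeq on GRCm38.p6.

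Counts were normalised with TMM factors, filtered with filterByExpr (12847 genes left) and tested with edgeR 4.0.16 (glmQLFit, glmQLFTest) in R 4.3.3, with Benjamini-Hochberg adjustment over all tested genes and a threshold of 0.05. The genotype fit has genotype as its only term, and the title number fit has both terms. The SE is the log2 fold change divided by the square root of F. DESeq2 1.42.0, limma voom (limma 3.58.1), other scalings and filters, each library left out in turn, and summed libraries of 1 title number were alternatives. GC and length offsets, added later, are the median deviation of genes in 20 bins. The edgeR step was run on simulated counts, with the same spread set for every gene and no title number difference in the genotype run. That checks the code and does not measure the power of the genotype comparison here.

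The 10 genes, the lists, the title number split and the tests were chosen with earlier results of these data known. The split was taken up because those results showed the libraries separating by it. Named are the 10 genes, Epha2, and per list up to 4 called genes by smallest p, or else up to 2; the counts of overlapping genes, low-level relatives and markers named besides were chosen after their values were seen. Replicate numbers follow accession order. 0 columns of other samples were present.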

Additional observations from a re-analysis of the deposited data

How the results depend on the processing

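Of the genotype results, the count of desmosome genes called was 0 under each alternative. The count over all genes was 1 in edgeR, 5 in DESeq2 and 0 with libraries of 1 title number summed. With the title number term the genotype log2 fold change turned sign for Dsp (-0.20), Jup (-0.24), Pkp1 (-0.26), Pkp3 (-0.034), Dsc3 (0.069) and Perp (0.029), and with title numbers summed it was -0.12, -0.12, -0.17, -0.0062, 0.058 and 0.011 for the same genes. Leaving out 1 library at a time gave -0.21 to 0.041 for Dsc3, 0.05 to 0.62 for Dsp, -0.0069 to 0.60 for Jup, -0.10 to 0.50 for Pkp1 and -0.16 to 0.049 for Perp. The cause of these turns was not tested.

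By title number, Dsp, Jup and Pkp1 were called under each of the 16 alternatives, Pkp3 under 14 and Dsc3 under 12. The count of 5 was 8 in DESeq2 and 8 with total counts, and 3 to 7 with 1 library left out, the 3 being Dsp, Jup and Pkp1 when EphA2 null 1 was dropped. Over all genes the count of 5740 was 1103 to 5803 with 1 library left out, 1103 when EphA2 null 1 was dropped, 3549 without wild type 2 and 3702 without wild type 3. For the related lists the count of 20 was 6 (again when EphA2 null 1 was dropped) to 25. Dsg1a (0.045) and Dsg3 (0.0094) turned sign with GC offsets, and Dsg2 (-0.011) with total counts. The interaction count over all genes was 0 in edgeR (0 with median-ratio size factors), 3 in DESeq2 and 128 with no filter. The labels give no replicate numbers that pair single libraries of the genotypes. The fit with the title number term, given above, is the one that compares the genotypes within the ranges. The genotype fit with title numbers summed has genotype as its only term, so the difference between the ranges stays in its spread. Each of the 10 genes had at least 1333 counts in every library, so counting error is small beside the spread between libraries.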

Other observations

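The make-up of each family was taken per length of annotated exon. Dsc2 made up 53.3 ± 0.207% of Dsc2 and Dsc3 per kilobase at the higher and 43.3 ± 3.06% at the lower title numbers, against 49.7 ± 6.10% under the label EphA2 null and 46.9 ± 6.49% for wild type (SD, n = 3 each). Of Dsg1a, Dsg2 and Dsg3 together, Dsg1a made up 62.6 ± 2.19% at the higher and 63.7 ± 2.21% at the lower title numbers, and Dsg3 33.3 ± 1.76% at the higher and 33.2 ± 1.998% at the lower ones. Dsg2 made up 4.05 ± 0.481% at the higher and 3.06 ± 0.357% at the lower title numbers. Pkp1 made up 63.1 ± 2.89% of the 2 plakophilins at the higher and 56.1 ± 3.01% at the lower numbers.

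Of 8840 genes averaging 10 CPM or more, the 5 outside the 10 whose log2 CPM over the 6 libraries was most like that of Dsp were Trim29 (Pearson r = 0.9994), a tripartite motif gene of layered epithelia, Tnpo2 (0.9992), a nuclear import receptor gene, Nlrx1 (0.999), Ube2z (0.9987) and Ppp1r15b (0.9985). Among the 10, Jup had r = 0.997, Pkp1 0.992 and Pkp3 0.984, while Dsc3 had -0.958. The 6 libraries fall into 2 sets by title number, which sets most of each r, so these values are a description. Trim29 had 1820 CPM at the higher and 1166 CPM at the lower title numbers.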
